A study of Homo sapiens with 3 samples.

Results

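The nuclear factor I (NFI) genes NFIA, NFIB, NFIC and NFIX and the thymocyte selection-associated HMG box (TOX) genes TOX, TOX2, TOX3 and TOX4 encode 2 families of DNA-binding proteins. These 8 of the 58333 genes in the expression table were taken by name, as every member of the families of NFIA and TOX2. Both of these genes were in the panel that was measured again by qPCR in the study. The families were measured in Cal62, a human thyroid cancer cell line, grown in DMEM with 10% fetal bovine serum and transfected with Lipofectamine RNAimax. The 3 groups were siControl (a negative control siRNA), siADAR1 #1 and siADAR1 #2 (siRNAs against ADAR1, the enzyme that edits adenosine to inosine in double-stranded RNA). Each group had 2 biological replicates, and all were cells of this 1 line. In bulk RNA of this kind, fewer cells that express a gene and less of its RNA per cell cannot be told apart.

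NFI proteins bind DNA as dimers, of like or unlike members, at a palindrome whose arms read TTGGC and GCCAA, and they are known for roles in the development of brain, lung, muscle and tooth. NFIA and NFIB are best described in the switch of neural progenitors to glia, NFIC in tooth root formation and NFIX in muscle and neural stem cells. TOX proteins share 1 HMG box, a fold that bends DNA. TOX and TOX2 are known from T cells, innate lymphoid cells and follicular helper T cells, TOX3 from neurons and breast epithelium, and TOX4 is found in most tissues as a partner of the PTW/PP1 phosphatase complex.

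ADAR, the targeted gene, had 10906 and 11701 normalized counts in the siControl libraries, 1328 and 2246 with siADAR1 #1, and 1663 and 2928 with siADAR1 #2. Its log2 fold change (log2FC) was -2.71 (adjusted p = 0.00295) with siADAR1 #1 and -2.35 (adjusted p = 0.00128) with siADAR1 #2. A normalized count is the number of reads of a gene divided by the library's size factor, and total reads on genes ran from 30114840 to 50029763 per library. Genes were tested with limma's moderated test, across the 20858 with a mean deposited log2 value of at least 3.32. A log2 value of 3.32 stands for 7.62 normalized counts. A gene is called here when its adjusted p is under 0.05 and its log2FC is beyond 0.5 in either direction. Both thresholds follow the methods of the study. Of the genes tested, 63.2% of the calls with siADAR1 #1 were lower, and 46.7% when the libraries were centred on their medians, a step that moved the median log2FC of all genes from -0.02 to 0.12. Markers of the labelled cell type were in part absent: NKX2-1 had 0 reads in every library, while PAX8 had between 2242 and 15557 and HHEX between 1208 and 2502.

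NFIA, NFIC and TOX2 had less RNA with both siRNAs. NFIX was called lower with siADAR1 #1 and not with siADAR1 #2, NFIB with siADAR1 #2 and not with siADAR1 #1, and TOX4 with neither. TOX was read almost only in the siADAR1 #2 libraries, and TOX3 was not read at all. With siADAR1 #1, 4 of the 6 tested members were called, all lower, against 16.8% of all genes called and 10.6% called lower. With siADAR1 #2, again 4 of 6 were called and all lower, against 26.6% of all genes called and 15.5% called lower. The median log2FC of the 6 was -1.27 and -1.15, and that of all genes tested was -0.02 and -0.01. NFIA, NFIC and TOX2 are the 3 members called lower with both siRNAs, as 3.41% of all genes tested were. They are also the 3 with all 4 siADAR1 values under both siControl values, a pattern of 16.6% of all genes. When the filter was dropped and all 58333 genes were tested, NFIC alone of the 6 kept its calls against siControl. Both comparisons use the same siControl libraries, so they are not independent of each other, and NFIA and TOX2 entered the study's qPCR panel because of these libraries.

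**Figure D1:**
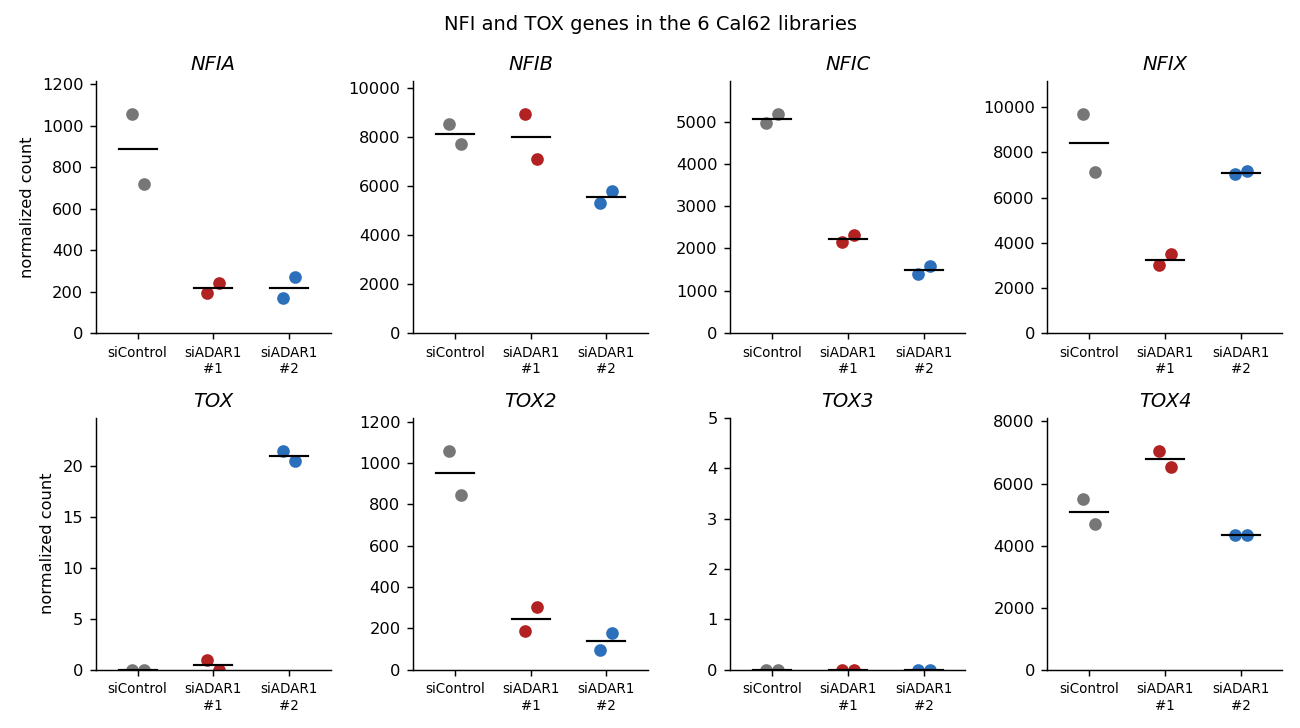
Normalized counts (vertical axes, from 0, a different scale in each panel) of the 8 genes in each library (points) of the 3 groups, with the mean of each group as a line. NFIA, NFIC and TOX2 sit lower in all 4 siADAR1 libraries, NFIX in the siADAR1 #1 pair, NFIB in the siADAR1 #2 pair, TOX is read in the siADAR1 #2 pair, and TOX3 is at 0 throughout.

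The sequences before a RefSeq transcript start are shown for the 3 genes called lower with both siRNAs and for NFIX, which was called with 1 of them, so that their starts can be compared. RefSeq promoter entries (GRCh38.p14) were found for 6 of the 8 genes, 22 entries in all. For NFIA and NFIX the entry at the start of the GENCODE canonical transcript is given, and for NFIC and TOX2, which have no entry there, the first one. Only bases outside exons annotated for the gene are printed, 5′ to 3′ on the plus strand, and capitals mark TTGGC or GCCAA, the arms of the NFI palindrome, and GGGCGG or CCGCCC, the GC box. No match of one motif overlapped a match of the other in these 4 entries.
NFIA, chr1:61082311-61082397: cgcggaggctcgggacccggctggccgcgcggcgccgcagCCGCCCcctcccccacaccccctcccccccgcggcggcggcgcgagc
NFIC, chr19:3359380-3359562: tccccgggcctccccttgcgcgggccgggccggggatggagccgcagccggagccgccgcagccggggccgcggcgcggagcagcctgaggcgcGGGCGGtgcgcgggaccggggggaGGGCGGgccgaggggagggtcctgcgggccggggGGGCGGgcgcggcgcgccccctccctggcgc
TOX2, chr20:43915880-43916129: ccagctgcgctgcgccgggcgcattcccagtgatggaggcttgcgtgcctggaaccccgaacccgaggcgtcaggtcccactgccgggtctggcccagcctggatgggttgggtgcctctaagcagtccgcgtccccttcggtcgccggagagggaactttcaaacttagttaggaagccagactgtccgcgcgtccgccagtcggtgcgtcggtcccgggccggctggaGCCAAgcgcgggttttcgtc
NFIX, chr19:12995225-12995474: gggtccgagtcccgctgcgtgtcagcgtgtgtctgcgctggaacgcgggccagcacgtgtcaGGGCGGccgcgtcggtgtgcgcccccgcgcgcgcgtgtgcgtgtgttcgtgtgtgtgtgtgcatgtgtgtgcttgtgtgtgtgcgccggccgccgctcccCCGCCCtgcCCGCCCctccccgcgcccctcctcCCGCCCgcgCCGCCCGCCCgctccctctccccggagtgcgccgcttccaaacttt

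The TOX2 stretch holds 1 arm of the NFI palindrome and no GC box, and the other 3 hold GC boxes and no arm. Over the whole window of 250 bases, the NFIA entry has 2 GC boxes, the NFIC entry 3 and the NFIX entry 6. Of all 35116 RefSeq windows of that length, 40.8% hold at least 1 arm and 42.6% at least 1 GC box, on either strand. The whole palindrome, TTGGC and GCCAA with any 5 bases between them, is in 10 of them and in none of the 22 entries of the members. The NFIC window is 87.2% G or C and the NFIA window 77.2%, against a median of 58% over all windows. Entries not shown differ: those before NFIA start 61077227 and NFIX starts 13024579 and 13024581 each hold 1 arm. The NFIB entry at its canonical start, also not shown, holds 6 GC boxes and no arm and is 82% G or C. These are letters in a window, and which start the cells used was not measured.

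NFIA, on chr1:60865259-61462788 on the plus strand, had 1056 and 716 normalized counts in siControl, 193 and 242 with siADAR1 #1, and 169 and 270 with siADAR1 #2. The siControl libraries were the highest, and the siADAR1 groups overlapped each other. The mean fell from 886 ± 241 (SD, n = 2) to 218 ± 35.2 and 219 ± 71.1, which are 24.5% and 24.7% of siControl. The log2FC was -2.00 (SE 0.29, adjusted p = 0.00517) with siADAR1 #1 and -2.01 (SE 0.29, adjusted p = 0.00194) with siADAR1 #2, and 1.13% and 1.39% of all genes had a lower one. Between the siRNAs the log2FC was -0.02, with a 95% interval from -0.68 to 0.65. With siADAR1 #1 the call was lost without siControl replicate 1, the higher of the siControl libraries (log2FC -1.72, adjusted p = 0.0615).

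NFIC, on chr19:3314403-3469217 on the plus strand, had 4966 and 5185 normalized counts in siControl, 2145 and 2326 with siADAR1 #1, and 1405 and 1585 with siADAR1 #2. The 3 groups did not overlap, with siADAR1 #2 lowest. The log2FC was -1.18 (SE 0.12, adjusted p = 0.00259) with siADAR1 #1 and -1.76 (SE 0.12, adjusted p = 0.000259) with siADAR1 #2. The siRNAs differed by -0.58 (SE 0.12, adjusted p = 0.0079), so NFIC was lower with siADAR1 #2 than with siADAR1 #1. NFIC was the only member whose calls against siControl held in each of the 15 alternatives run for each siRNA. The difference between the siRNAs was not called without siADAR1 #2 replicate 1 (log2FC -0.49, adjusted p = 0.0614).

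NFIX, on chr19:12995475-13098796 on the plus strand, had 9710 and 7134 normalized counts in siControl, 2999 and 3486 with siADAR1 #1, and 7069 and 7158 with siADAR1 #2. The siADAR1 #1 libraries lay below the other 4, and the siADAR1 #2 libraries overlapped siControl. The log2FC was -1.36 (SE 0.16, adjusted p = 0.00323) with siADAR1 #1, and 38.5% of the siControl level remained. With siADAR1 #2 it was -0.23 (SE 0.16, 95% interval -0.60 to 0.14, adjusted p = 0.335). NFIX was 1.14 higher on the log2 scale with siADAR1 #2 than with siADAR1 #1 (SE 0.16, adjusted p = 0.00137). A lncRNA on the other strand shares 67 exon bases with NFIX and had at most 12 reads in any library.

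NFIB, on chr9:14081843-14398983 on the minus strand, had 8533 and 7702 normalized counts in siControl, 8947 and 7100 with siADAR1 #1, and 5309 and 5808 with siADAR1 #2. The siADAR1 #1 libraries lay on both sides of siControl, while the siADAR1 #2 pair was below the other 4. The log2FC was -0.02 (95% interval -0.35 to 0.30) with siADAR1 #1 and -0.55 (SE 0.14, adjusted p = 0.0212) with siADAR1 #2, and the siRNAs differed by -0.52 (adjusted p = 0.0208). The change with siADAR1 #2 is close to the threshold of 0.5, and 7 of 15 alternatives ended the call. Those were leaving out either siControl or either siADAR1 #2 library, quantile normalization, no trend in the variance and no filter on low values. The difference between the siRNAs was also lost in 6 of 15, without siADAR1 #1 replicate 1, without either siADAR1 #2 library, under quantile normalization, without a trend and without the filter.

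TOX2, on chr20:43914852-44069616 on the plus strand, had 1060 and 845 normalized counts in siControl, 185 and 304 with siADAR1 #1, and 96.4 and 177 with siADAR1 #2. The siControl libraries were again the highest, and both siADAR1 #2 values lay under both siADAR1 #1 values. The log2FC was -1.98 (SE 0.34, adjusted p = 0.00894) with siADAR1 #1 and -2.83 (SE 0.34, adjusted p = 0.00101) with siADAR1 #2, where only 0.302% of all genes had a lower one. The level with siADAR1 #2 was 14.4% of siControl. The difference between the siRNAs was -0.85 (95% interval -1.63 to -0.06) and missed the threshold (adjusted p = 0.0881), but passed it in 5 of 15 alternatives. Those were the replicate number as a block (adjusted p = 0.0483), median centring, quantile normalization, and leaving out siADAR1 #1 replicate 1 or siADAR1 #2 replicate 2. The siADAR1 #1 call was lost without siControl replicate 1 (adjusted p = 0.0853) and without siControl replicate 2 (adjusted p = 0.0543), and without a trend in the variance (adjusted p = 0.0507).

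TOX4, on chr14:21476597-21499175 on the plus strand, had 5488 and 4702 normalized counts in siControl, 7061 and 6533 with siADAR1 #1, and 4340 and 4333 with siADAR1 #2. The groups did not overlap, and the siControl libraries lay between the others. The log2FC was 0.42 (SE 0.12, adjusted p = 0.0462) with siADAR1 #1, under the fold threshold, and -0.23 (adjusted p = 0.194) with siADAR1 #2. With the libraries centred on their medians the value with siADAR1 #1 was 0.56 and was called. The siRNAs differed by -0.65 (SE 0.12, adjusted p = 0.00433). Exons of METTL3 (388 bases) and RAB2B (124 bases), on the other strand, overlap those of TOX4, and whether reads were counted by strand is not given in the sources used here. METTL3, the catalytic part of the RNA N6-adenosine methyltransferase, differed between the siRNAs by -0.61 (adjusted p = 0.0178) and RAB2B by -0.38 (adjusted p = 0.0753), and the part of shared reads in the TOX4 values was not tested.

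TOX and TOX3 did not pass the filter and have no test. TOX, on chromosome 8 at 58805412-59119147 on the minus strand, had 0 and 0 reads in siControl, 1 and 0 with siADAR1 #1, and 19 and 14 with siADAR1 #2. The siADAR1 #2 libraries, at 21.5 and 20.5 normalized counts, lay above the other 4. The limit that 0 reads allow in siControl is 3 reads per library, 3.16 normalized counts on average. The mean of 21.0 ± 0.73 (SD, n = 2) was 6.65-fold this limit. The lowest siADAR1 #2 value was 6.28-fold the highest siControl limit. Neither ratio includes the counting error of the 19 and 14 reads. When every gene in the table was tested, the log2FC of TOX with siADAR1 #2 was 4.21 (adjusted p = 0.0539), which is not a bound. CD3E, a T cell marker, had 0 reads in every library, and PTPRC, carried by leukocytes in general, at most 5. CD14, the other leukocyte marker looked at, had between 19 and 127 reads. TOX3, on chr16:52436417-52547802 on the minus strand, had 0 reads in each of the 6 libraries, which allows levels of up to 2.81 to 4.39 normalized counts at these depths. These limits cover counting error only.

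**Figure D2:**
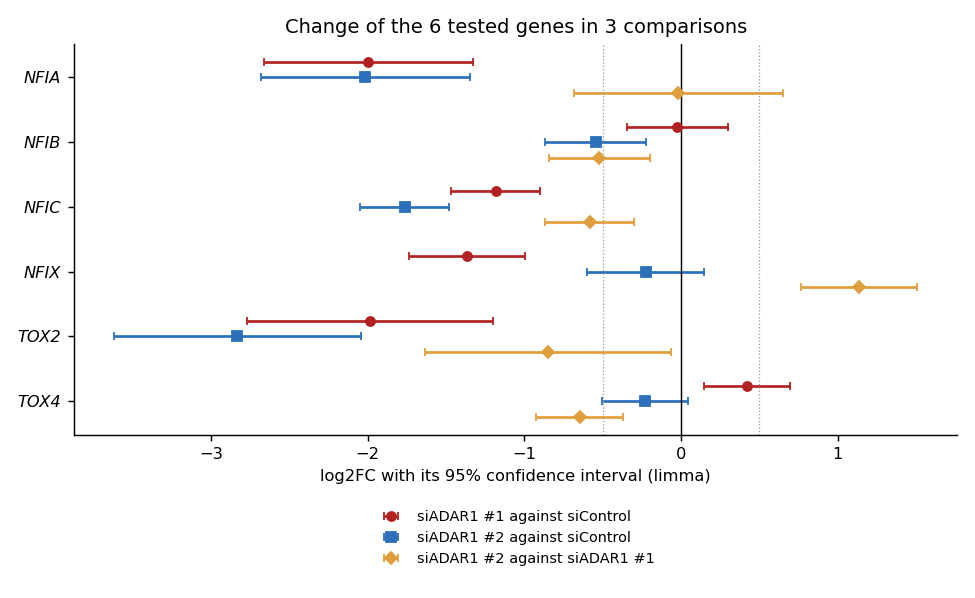
log2FC (horizontal axis) with its 95% confidence interval from limma for the 6 tested genes in the 3 comparisons. Dotted lines stand at a log2FC of 0.5 in either direction. The intervals of NFIA, NFIC and TOX2 lie below 0 with both siRNAs, those of NFIX and NFIB with 1 siRNA each, that of TOX4 lies above 0 with siADAR1 #1, and the intervals between the siRNAs leave 0 for all but NFIA.

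Set directly against each other, the siRNAs gave different levels of 4 of the 6 tested members, NFIB, NFIC, NFIX and TOX4, against 32.8% of all genes tested. Of these, 3 were lower with siADAR1 #2, as 16.1% of all genes were, and NFIX was higher, as 16.7% were. Within the NFI family the siRNAs therefore did not give the same set of changes: NFIA was lower by a like amount with both, NFIC more so with siADAR1 #2, and NFIX and NFIB each with a different siRNA. ADAR itself did not differ between the siRNAs beyond its spread (log2FC 0.35, 95% interval -0.34 to 1.05). When the 4 siADAR1 libraries were taken as 1 group, 0 of the 6 members and 0% of all genes were called by limma. ADAR, the targeted gene, was not called there either (log2FC -2.53, adjusted p = 0.0988), and no gene had a smaller adjusted p. Differences between the siRNAs are part of the error in that fit. At an unadjusted p under 0.05, 3 members (NFIA, NFIC and TOX2) and 2916 genes passed in that comparison. The average of the siRNAs in the fit with 3 groups, where the spread within each siRNA is the error, called 3585 genes, 4 members among them.

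**Figure D3:**
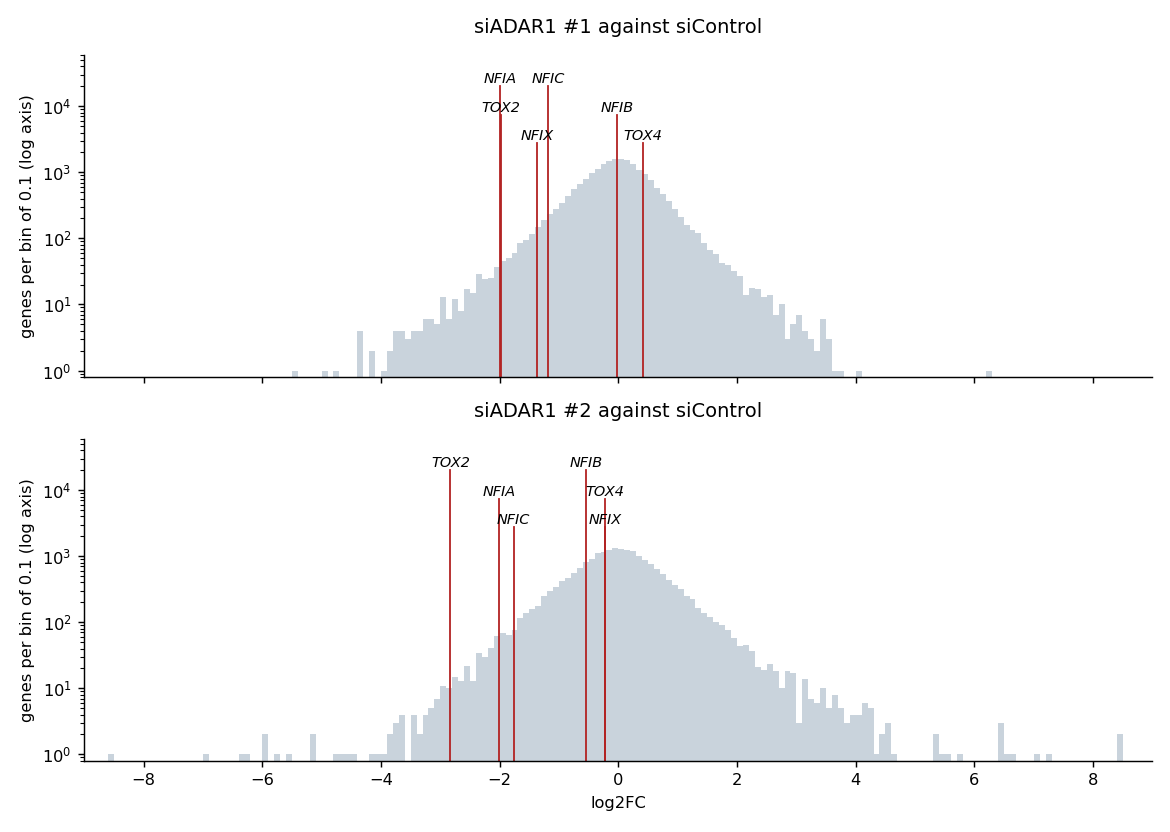
Number of genes (vertical log axis) by log2FC in bins of 0.1 for each siRNA against siControl, over the 20858 genes tested, with the 6 members marked as lines. NFIA and TOX2 lie near -2 with siADAR1 #1, where 1.13% and 1.17% of all genes had a lower value, and TOX2 lies at -2.83 with siADAR1 #2.

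Levels of different genes were compared as RPKM, the reads per kb of the GENCODE canonical transcript scaled to the reads counted in the library. In siControl the order was NFIX at 27.6 ± 3.53 (SD, n = 2), TOX4 at 22.4 ± 0.43, NFIB at 18.8 ± 0.33, NFIC at 12.6 ± 1.52, TOX2 at 7.57 ± 0.53 and NFIA at 1.89 ± 0.35 RPKM, and no neighbours in this order had overlapping libraries. With siADAR1 #1 TOX4 was first at 31.8 ± 2.32 RPKM and NFIX fell behind NFIB, from 27.6 to 11.4 RPKM. With siADAR1 #2 the siControl order returned, at 26.5 RPKM for NFIX and 0.53 RPKM for NFIA. TOX, at 0.12 RPKM with siADAR1 #2, was last among the genes read on this length. When all annotated exons of a gene were used as its length, the order was the same in siControl and with siADAR1 #1. With siADAR1 #2 TOX, at 0.12 RPKM, then lay above NFIA, at 0.083 RPKM.

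The sum over the NFI family was 61.0 ± 2.02 RPKM in siControl, 37.5 ± 2.27 with siADAR1 #1 and 45.7 ± 2.42 with siADAR1 #2. NFIX made up 45.3% of this sum in siControl, 30.4% with siADAR1 #1 and 58.0% with siADAR1 #2. NFIB was 30.9%, 52.5% and 31.8% in the same order. NFIC went from 20.8% to 15.7% and 9.12%, and NFIA from 3.09% to 1.33% and 1.16%. NFIA was the least abundant NFI RNA per length in each group, with either length. The shares depend on the length used: with all annotated exons NFIA was 0.599%, 0.270% and 0.218% of the NFI sum, and NFIX 52.3%, 36.8% and 65.0%. In the TOX family TOX4 was 74.8% of the sum in siControl and 93.8% and 94.1% with the siRNAs, while TOX2 went from 25.2% to 6.16% and 5.36%. These shares are descriptions of 2 libraries a group and were not tested.

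**Figure D4:**
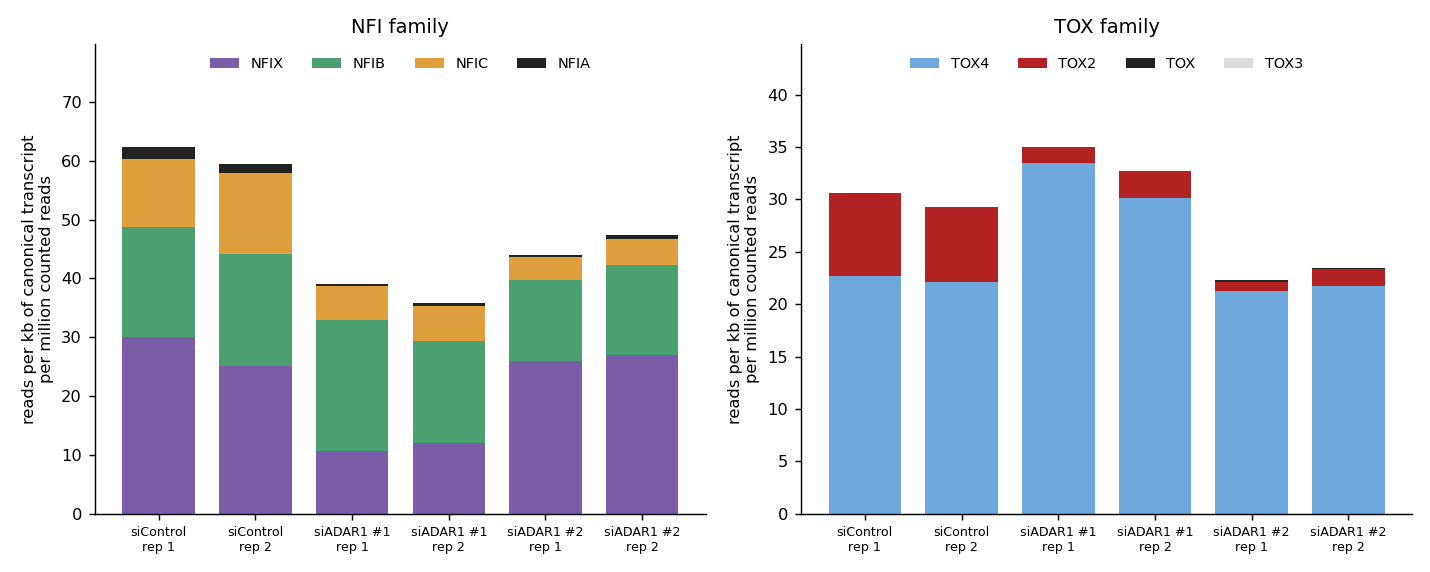
RPKM (vertical axis) of the NFI genes (left) and the TOX genes (right), stacked for each of the 6 libraries. The NFI bars are lowest with siADAR1 #1, where the NFIX layer shrinks, and the TOX2 layer is thin in all 4 siADAR1 libraries.

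The genes whose 6 values, each centred on its own mean, lay nearest to NFIA were BNC2 (basonuclin 2, a zinc finger protein) at a Euclidean distance of 0.17 on the log2 scale, FHOD3 (a formin, which assembles actin filaments) at 0.19 and ZNF681 (a zinc finger protein) at 0.46. BNC2 had a log2FC of -1.90 with siADAR1 #1 and -2.01 with siADAR1 #2. Nearest to TOX2 were CPNE2 (a copine, which binds membranes with calcium) at 0.37, CABLES2 at 0.41 and CYS1 (cystin 1, a protein of the primary cilium) at 0.59. CPNE2 had a log2FC of -2.06 and -2.72 with siADAR1 #1 and #2. TOX2 was at 1.01 from NFIA, NFIC at 1.02 and NFIX at 1.87, at ranks 102, 107 and 2270 among the tested genes. NFIB was at 2.15 and TOX4 at 2.58, at ranks 4857 and 10896. ZNF681, like NFIA and TOX2, is among the genes with qPCR primers in the study.

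Genes that are described as regulated by NFI proteins were lower in part. Of the 10 listed, 7 were tested, and 4 were called lower and 0 higher with each siRNA, against 10.6% and 15.5% of all genes called lower with siADAR1 #1 and #2. The median log2FC was -0.86 and -0.61. The list was not divided by whether NFI proteins are described as raising or lowering each gene. Its median therefore says nothing of NFI activity. Without siControl replicate 1, or without the filter on low values, 0 of the 7 were called with either siRNA. Calls over all genes with siADAR1 #1 fell in these settings too, without the filter from 3502 to 548. The loss is therefore not read as a trait of this list. HES1, a Notch target that keeps progenitors undifferentiated, was lower with both siRNAs (log2FC -1.13 and -1.06). EZH2, the methyltransferase of the Polycomb complex (-0.86 and -0.63), and SOX9, a regulator of chondrocytes and glia (-1.76 and -1.59), were also lower with both, as 3.41% of all genes were. ZCCHC24 was lower with siADAR1 #1 (-0.99, and 0.18 with siADAR1 #2), BBX with siADAR1 #2 (-0.61, and 0.40 with siADAR1 #1). CDKN1A, the cell cycle inhibitor p21, at 0.45 and 0.25, and GFAP, an astrocyte filament, at -0.16 and -0.54, were not called. APCDD1 and FABP7 had at most 8 reads and MMD2 had 0. With siADAR1 #2 the calls of EZH2 and BBX were lost under quantile normalization, which left 2, and without siADAR1 #2 replicate 1, which also left 2. With siADAR1 #1 the fit without a trend in the variance left 2.

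SMAD genes, whose MH1 domain is related to the DNA-binding domain of NFI, were all tested. With siADAR1 #1, 1 of 8 was called, SMAD3, a transducer of TGF-beta signals, higher at a log2FC of 0.68, against 6.18% of all genes called higher. With siADAR1 #2, 4 of 8 were called lower: SMAD3 (-0.89), SMAD1 (-0.83), SMAD4 (-0.64) and SMAD9 (-1.45), against 15.5% of all genes. Without siControl replicate 1, or without siADAR1 #2 replicate 1, 2 of them were called, and without the filter on low values 0. Calls over all genes with siADAR1 #2 fell without the filter as well. In the main fit SMAD3 was thus called in opposite directions, as 1.55% of all genes were. SMAD2 (0.03 and -0.03), SMAD5 (0.50 and -0.15), SMAD6 (0.24 and -0.26) and SMAD7 (0.27 and 0.41) were not called with either siRNA. The SMAD3 call with siADAR1 #1 was lost without either siControl or either siADAR1 #1 library, and median centring, quantile normalization and voom each called 2 genes higher.

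Around the TOX family, the NFAT and NR4A genes, which act with TOX in T cells, also differed by siRNA. NR4A1, NR4A2 and NR4A3, nuclear receptors induced early by many stimuli, were higher with siADAR1 #1 (log2FC 2.23, 1.09 and 2.60). They were 3 of the 8 genes of the list, against 6.18% of all genes called higher. With siADAR1 #2 they were not called (0.42, 0.33 and 0.68). The difference between the siRNAs passed for NR4A1 (-1.81, adjusted p = 0.002) and NR4A3 (-1.91, adjusted p = 0.00754) and not for NR4A2 (-0.77, adjusted p = 0.0661). NFATC2, a calcium-responsive factor, was lower with siADAR1 #2 (-1.59), as was NFATC3 (-0.52). They were 2 of the 8, against 15.5% of all genes called lower. With siADAR1 #1 their log2FC was 0.34 and 0.29. NFATC1 (0.42 and -0.72), NFATC4 (-1.24 and -0.97) and NFAT5 (0.20 and 0.30) were not called, and NFATC4 was called lower with both siRNAs when the replicate number was a block. The NR4A2 call with siADAR1 #1 was lost without either siControl or either siADAR1 #1 library, without a trend in the variance and without the filter. The NR4A3 call was lost without siControl replicate 1 and without the filter, and the NR4A1 call without the filter. The difference of NR4A3 between the siRNAs was lost without siADAR1 #1 replicate 1 and without the filter. The NFATC3 call with siADAR1 #2 was lost in 6 of 15 alternatives, among them leaving out siControl replicate 1 or either siADAR1 #2 library. No siControl or siADAR1 #2 library had more than 79 reads of any NR4A gene.

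The PTW/PP1 complex, to which TOX4 belongs, had 1 of 5 genes called with each siRNA, against 16.8% and 26.6% of all genes, so nothing is read from these counts. WDR82, a scaffold that also serves histone methylation, was lower with siADAR1 #2 (log2FC -1.14, and 0.28 with siADAR1 #1). PPP1CA, a catalytic subunit, was lower with siADAR1 #1 (-0.56, and 0.02 with siADAR1 #2) and lost this call in 8 of 15 alternatives, median centring among them. PPP1R10, the targeting subunit (0.31 and -0.25), PPP1CB (-0.01 and 0.32) and PPP1CC (0.34 and -0.02) were not called.

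Of 38 other HMG-box genes 29 were tested. With siADAR1 #1, 4 were lower and 2 higher, against 10.6% and 6.18% of all genes in those directions. With siADAR1 #2, 13 were lower and 2 higher, against 15.5% and 11.1%. Without siControl replicate 1 the lower calls fell from 4 to 0 and from 13 to 7, and without the filter on low values to 1 and 3. Calls over all genes also fell without the filter, with siADAR1 #1 from 3502 to 548. The medians of the list were -0.13 and -0.51. The median with siADAR1 #1 became 0.02 under median centring, with 2 lower and 5 higher. SOX9 and HMGB3, an HMG-box protein of the HMGB type (-0.53 and -0.65), were called lower with both siRNAs, as 3.41% of all genes were. The HMGB3 call was lost in 9 of 15 alternatives with siADAR1 #1 and in 5 of 15 with siADAR1 #2. SOX13, a SoxD factor, was called higher with both (0.74 and 0.80), as 1.79% of all genes were, and lost its call in 5 and 3 of the 15.

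Partners of NFI proteins at thyroid promoters were taken from the textbook set of thyroid factors and their targets, 6 of 7 tested. With siADAR1 #1 none was called, and FOXE1, a forkhead factor, was called lower (-0.87) when the replicate number was a block. With siADAR1 #2 PAX8, the paired-box factor of follicular cells, was lower (log2FC -1.99, adjusted p = 0.00354), as was FOXE1 (-1.21, adjusted p = 0.0239), 2 of 6 against 15.5% of all genes called lower. The FOXE1 call was lost without siControl replicate 1, without siADAR1 #2 replicate 2 and without the filter on low values, and the PAX8 call without that filter. HHEX (0.29 and -0.14), TSHR, the thyrotropin receptor (-0.49 and 0.47), SLC5A5, the iodide transporter (0.40 and -0.04), and TG, thyroglobulin (0.82 and 2.86), were not called, although with the block TG was called with siADAR1 #2. TG had between 0 and 55 reads per library.

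**Figure D5:**
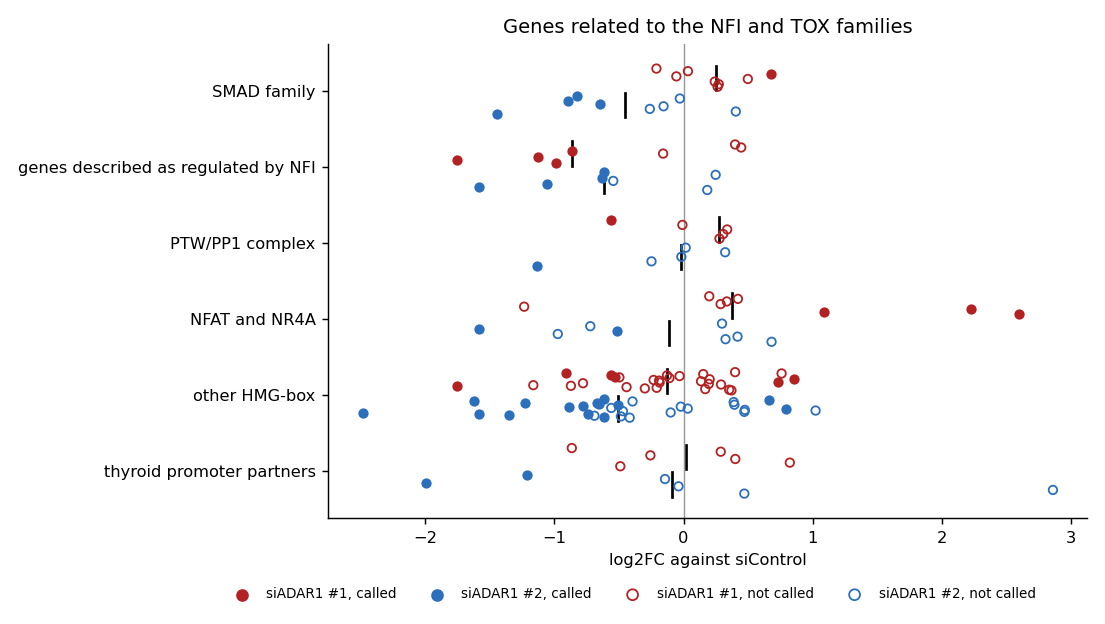
log2FC against siControl (horizontal axis) of the tested genes in the 6 lists related to the families, with called genes as filled circles, the others as open circles and the median of each list as a black bar. The median of the NFI-regulated list lies below 0 with both siRNAs, with 2 of its genes above 0 in each, while the medians of the SMAD list and of the NFAT and NR4A list lie above 0 with siADAR1 #1 and below 0 with siADAR1 #2.

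Other marker sums moved with the groups beside these results. The summed level of the mesenchymal markers VIM, CDH2 and FN1 was 269905 to 281768 normalized counts in siControl. It was 78846 to 131133 with siADAR1 #1 and 85759 to 152930 with siADAR1 #2, below siControl in both. The sum joins markers that were lowest in different groups, VIM in siADAR1 #1 replicate 1 and FN1 in siADAR1 #2 replicate 1. Over all libraries VIM ran from 5464 to 105253 normalized counts, FN1 from 28977 to 183632 and CDH2 from 4575 to 6837. The 4 epithelial markers summed to 71151 to 89898, 98864 to 103010 and 61622 to 70578. The 7 thyroid markers summed to 16283 to 18128, 12846 to 17800 and 4678 to 7473, with NKX2-1 at 0. The 3 leukocyte markers summed to 37.7 to 47.9 in siControl, 119 to 123 with siADAR1 #1 and 21.5 to 30.8 with siADAR1 #2. That sum is nearly all CD14, at 21.5 to 119 normalized counts, while PTPRC had at most 6.28 and CD3E 0. The 3 endothelial markers summed to at most 62.1 in any library. The part of these shifts in the changes of the NFI and TOX genes was not tested.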

How the data were processed

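Poly(A)+ RNA of Cal62 cells was sequenced by the authors as 75-bp paired-end reads after the KAPA mRNA HyperPrep kit, with 2 biological replicates for each of 3 siRNAs. The authors' methods state that reads were checked with FastQC, trimmed with Atropos and run in bcbio-nextgen, genes were counted by featureCounts with Salmon in parallel, and the authors normalized with DESeq2. The build was GRCh38, and tool versions are not given in the sources used here. The deposited table holds log2 values on one curve for all 6 libraries, the variance-stabilizing transformation of counts over size factors. It was inverted here to normalized counts and reads, and 100% of the values came back as whole reads within 0.1. A fold change on this log2 scale understates that of genes with few reads.

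The deposited log2 values were tested with limma 3.58.1 (R 4.3.3, lmFit and eBayes with trend, two-sided, Benjamini-Hochberg over 20858 of 58333 genes), with 3 groups in 1 fit and a second fit with both siRNAs as 1 group. Calls needed an adjusted p under 0.05 and a log2FC beyond 0.5. The test was tried on simulated data first. The main fit did not pair libraries by replicate number. Deviations of same-numbered libraries from their group means correlated at 0.106, 0.11 and 0.162 between the groups. The fit with the number as a block was an alternative. Alternatives were other filters, scalings, variance models, voom on the recovered reads, and each library left out. Named genes were the 8 members, ADAR, every gene of the short lists, up to 4 genes of the HMG-box list called alike with both siRNAs, the 3 genes nearest to NFIA and to TOX2, and overlapping genes (GENCODE 44). The members and lists were chosen with earlier results of these data known, and some list genes are not reported here.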

Additional observations from a re-analysis of the deposited data

Results flagged for a closer look

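The siRNAs differed from each other for 4 member genes by limma's test of the difference itself. Of all 20858 genes tested, 32.8% were called in that comparison. From siADAR1 #1 to siADAR1 #2, the log2FC of NFIB was -0.521, that of NFIC -0.581, that of NFIX 1.14 and that of TOX4 -0.647. NFIX had 2999 and 3486 normalized counts with siADAR1 #1 and 7069 and 7158 with siADAR1 #2. For TOX4 every siADAR1 #1 library lay above siControl and every siADAR1 #2 library below it. Groups of 2 libraries are too small to look for a library that stands apart.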

How the results depend on the processing

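Of 360 alternative values for the members' log2FC, 316 kept direction and call, 26 lost the call, 10 gained it and 8 changed sign. Other filters, variance models and the replicate block leave the log2FC itself unchanged, so only the call could change there. The same holds for leaving out a library of a group outside the comparison. The 316 are therefore not a measure of how stable the directions are. NFIC kept its calls against siControl in all 15 alternatives for each siRNA. Without the filter on low values, which tests 58333 genes, 548 genes were called with siADAR1 #1 (3502 with it), 2103 with siADAR1 #2 (5541), 3221 between the siRNAs (6838) and 159 with both siRNAs as 1 group (0), and the members called fell from 4 to 1 (NFIC), from 4 to 1 (NFIC) and from 4 to 0 in the first 3. Without a trend in the variance 1347 genes were called with siADAR1 #1. Leaving out 1 library gave 392 to 3680 genes and 2 to 4 members with siADAR1 #1, lowest without siControl replicate 1, 3150 to 5758 genes with siADAR1 #2, and 2 to 4 members between the siRNAs, lowest without siADAR1 #2 replicate 1. The average of the siRNAs in the fit with 3 groups called 3585 genes and 4 members. Values that changed sign were all small and not called. For NFIB with siADAR1 #1 they were 0.12 under median centring and 0.017 under quantile normalization, and -0.19 to 0.14 when 1 library was left out. For NFIA between the siRNAs the range was -0.35 to 0.32 and for TOX4 with both siRNAs as 1 group -0.031 to 0.21. In the fit with a replicate block, for a pairing by replicate number, 4 members were called with siADAR1 #1, 4 with siADAR1 #2 and 5 between the siRNAs. Calls over all genes with siADAR1 #1 rose with the block as well, from 3502 to 4086. The member counts between the siRNAs, here and with 1 library left out, have no count of all genes beside them. They are not read as a result about the members. The block changed the call of no member but TOX2. The cause of these changes was not tested beyond the number of genes or libraries. With 2 libraries a group, a change within the intervals given is not detectable here, and levels under 3 reads are at the limit of the depth.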
